A study of Mus musculus with 27 samples.

Results

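Gene expression of the mouse esophagus at birth was compared with that at the end of the first postnatal week. The comparison rests on 6 arrays, 3 from postnatal day 0 (P0) and 3 from postnatal day 7 (P7), out of 27 arrays in the series, chosen by the age and genotype in their labels. All 6 held whole esophagus of wild-type C57BL/6J mice, with no treatment named. RNA was extracted from individual esophagi by the study's methods. For description only, named genes were also read on wild-type arrays of embryonic days 11.5 and 15.5 (E11.5, E15.5). They were read too on P7 whole esophagus of Nrf2-/-, Keap1-/- and Nrf2-/-Keap1-/- mice on a C57BL/6J background. Adult arrays, also read, held esophageal epithelium, not whole esophagus, of wild-type mice of 8 weeks. *B3galt5* was read as well on epithelium of Nrf2-/- adults of 8 weeks, and adult arrays named elsewhere are wild-type. On each 2-colour Agilent array the esophageal RNA was labelled with Cy5 and a common reference RNA, pooled from mouse cell lines, with Cy3. A level is given here as the log2 ratio of Cy5 over Cy3, and a change as the P7 mean minus the P0 mean of that ratio, with its standard error (SE) and 3 arrays an age. A gene was called when the p of limma's moderated test, adjusted over all genes tested by Benjamini-Hochberg, was at most 0.05.

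The esophagus of a newborn mouse is lined by a stratified epithelium. Its basal cells divide, and their daughters move up, fill with keratins and build under the plasma membrane a cornified envelope of crosslinked proteins, among them loricrin, the small proline-rich (Sprr) proteins and the late cornified envelope (Lce) proteins. In the embryo the same lining passes through a stage with ciliated columnar cells, whose motile cilia depend on the transcription factor Foxj1 together with Rfx factors. The wall around the epithelium holds smooth muscle, fibroblasts, vessels, nerves and immune cells, and in the mouse also skeletal muscle, which spreads along the organ around birth and goes on to mature. In whole tissue, fewer cells of a type and less RNA in each of those cells cannot be told apart.

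Over the genes tested, pairs of P0 arrays correlated at 0.967 to 0.981, pairs of P7 arrays at 0.920 to 0.950 and P0 with P7 arrays at 0.889 to 0.925. The P0 arrays were thus more alike than any P0 and P7 array, while both pairs that held P7 replicate 2, at 0.920 and 0.922, lay within the range between the ages. The P7 arrays lay on 1 slide and the P0 arrays on 2 others, so slide and age cannot be told apart. Markers of esophageal epithelium were present at both ages, and 1 of 12 was called. That one was *Epcam*, an adhesion protein of epithelial cells, which fell by 0.73 ± 0.12 (adjusted p = 0.0171). Several arrays also held signal of marker genes of neighbouring organs. Lung markers were higher at P0, and the stomach marker *Gkn2* stood at 6.53 and 5.78 on P7 replicates 1 and 2 but at −0.29 on P7 replicate 3. These values are given again beside the groups they move with.

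Of 18428 genes tested, 1089 were called (5.91%), 543 higher at P7 (2.95%) and 546 lower (2.96%). Each count of called list members below is to be read beside these shares. The change was at least 2-fold for 396 of them, 183 higher and 213 lower. With median centring of each array in place of loess, 324 were called higher and 691 lower. The median change of all genes was 0.01 with loess and −0.08 with median centring, so the balance of rises and falls over the whole array depends on that choice. Leaving out 1 array moved the number called from 1089 to between 235 (without P0 replicate 3) and 1986 (without P7 replicate 2). Without P0 replicate 1 it was 303, without P0 replicate 2 it was 325, and without P7 replicate 1 it was 588. On P0 replicates 1 and 3, 4 spots each lay in local background more than 5 times that of the median spot, and where this background was kept in the model 93 genes were called.

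**Figure D1:**
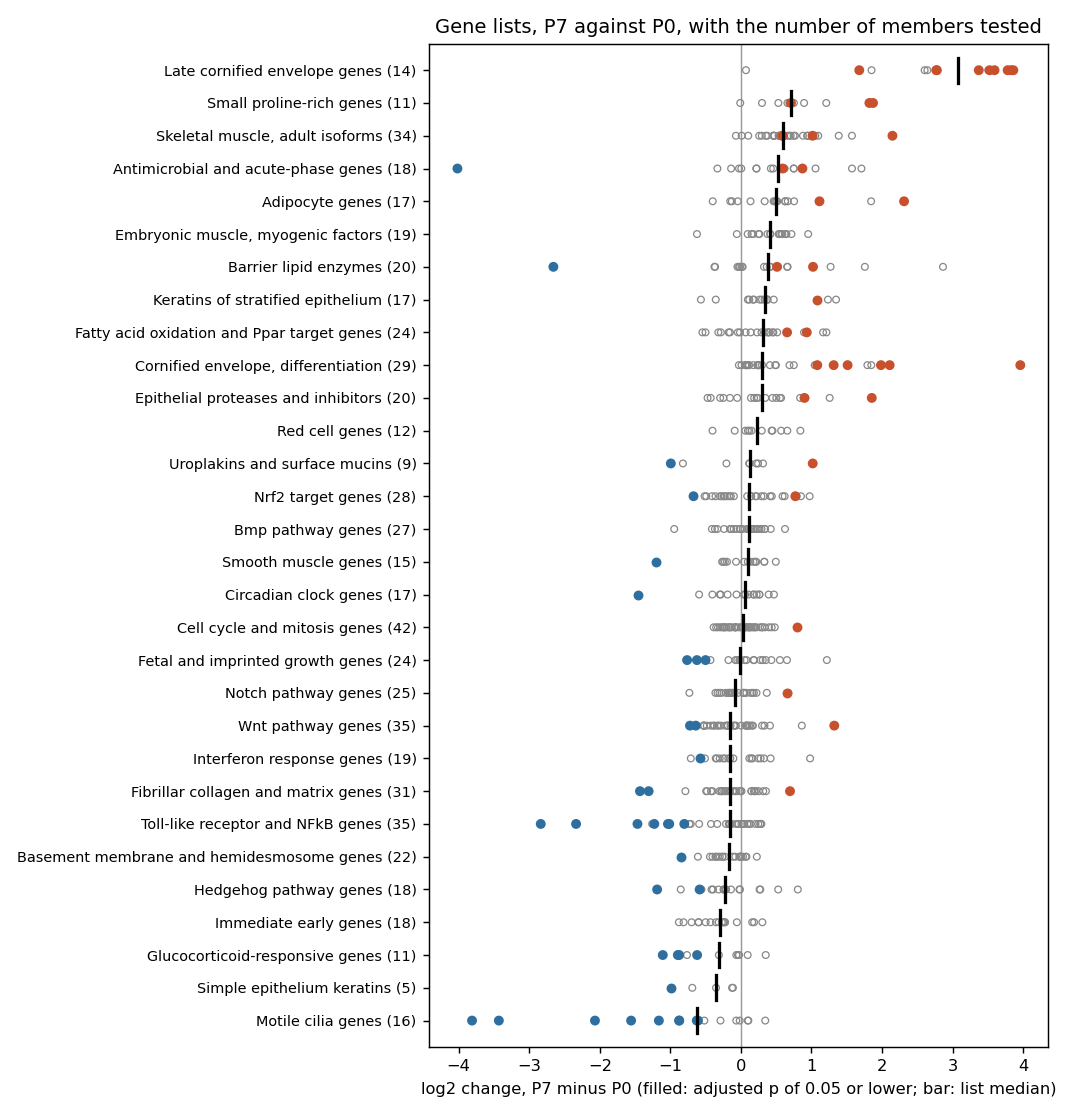
Log2 change from P0 to P7 of every tested member of the gene groups (x axis, P7 mean minus P0 mean, 3 arrays an age), 1 row a group and 1 point a gene. Filled points are called genes (red higher, blue lower at P7), open points genes not called, and the bar is the group median, which is highest for the late cornified envelope genes at 3.07 and lowest for the motile cilia genes at −0.62.

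Genes of motile cilia were lower at the end of the week. Of 16 tested members of the motile cilia list, 9 fell and none was called higher, against 2.96% called lower among all genes, and the list's median change was −0.62 beside 0.01 for all genes. The leading members were *Dynlrb2*, a light chain of the dynein motors, *Foxj1*, the master regulator of motile ciliogenesis, and *Tekt1*, a tektin filament protein of the ciliary axoneme. Their promoters are shown first, with those of *Ccdc153* and *Efcab10*, because Rfx factors, which act with Foxj1, bind sites that contain GTTGCC or its reverse complement GGCAAC. No promoter of *Foxj1* was held in the RefSeq table used. Each line gives the 250 bases before the transcription start, 5′ to 3′ on the strand of the gene, from RefSeq on GRCm38.p6, with every GTTGCC or GGCAAC in capitals.
Dynlrb2, chr8:116504765-116505014, + strand: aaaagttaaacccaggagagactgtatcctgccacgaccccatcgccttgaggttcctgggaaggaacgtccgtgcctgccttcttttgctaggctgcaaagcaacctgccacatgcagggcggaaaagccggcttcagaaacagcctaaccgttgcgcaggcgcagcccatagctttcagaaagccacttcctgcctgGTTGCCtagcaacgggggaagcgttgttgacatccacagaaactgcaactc
Tekt1, chr11:72361883-72362132, - strand: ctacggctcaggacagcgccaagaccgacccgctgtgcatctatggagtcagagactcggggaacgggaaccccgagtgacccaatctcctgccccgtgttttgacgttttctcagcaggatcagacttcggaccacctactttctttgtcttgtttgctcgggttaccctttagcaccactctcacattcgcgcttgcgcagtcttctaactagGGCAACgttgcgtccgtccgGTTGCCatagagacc
Ccdc153, chr9:44240427-44240676, + strand: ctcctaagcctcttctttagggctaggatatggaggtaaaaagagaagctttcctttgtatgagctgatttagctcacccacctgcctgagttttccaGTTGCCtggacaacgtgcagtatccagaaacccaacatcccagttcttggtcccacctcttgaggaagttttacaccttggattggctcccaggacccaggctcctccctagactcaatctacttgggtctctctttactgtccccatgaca
Efcab10, chr12:33394604-33394853, + strand: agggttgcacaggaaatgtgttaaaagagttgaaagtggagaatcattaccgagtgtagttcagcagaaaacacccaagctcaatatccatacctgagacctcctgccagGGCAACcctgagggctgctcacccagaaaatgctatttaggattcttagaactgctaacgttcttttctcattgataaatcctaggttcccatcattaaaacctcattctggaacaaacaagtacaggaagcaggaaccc

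The promoters shown were taken from those that hold the hexamer, so its presence in them is not a result. The hexamer was found on either strand in 3425 of 32851 RefSeq promoters of this length (10.4%). In the motile cilia list it was in 7 of 16 promoters (43.8%), which belonged to 6 of the 13 members with a promoter in the table. Among the 9 promoters of members called lower it was in 4 (44.4%), which belonged to 3 of the 6 members with a promoter. Overlapping promoters of *Tekt2* were counted apart. Among the 20 largest decreases of the whole comparison it was in 7 of 18 promoters (38.9%). Among the 20 largest increases it was in 0 of 17. The 7 included that of the Y-linked *Eif2s3y*, and 8 of the 20 increases were of Lce genes, near copies of one another. The contrast was smaller over all called genes with a symbol. For those called lower the hexamer was in 69 of 430 promoters, and for those called higher in 38 of 344. In *Tekt1* it occurred 2 times, 15 and 35 bases before the start. The forkhead core TGTTTAC, or GTAAACA on the other strand, was in 3.2% of all promoters and in 0 of 16 of the list. A match in these letters is a description of the sequence and not a binding site.

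*Foxj1* stood at 3.17, 3.65 and 3.21 on P0 replicates 1 to 3 and at −0.14, −0.17 and 0.06 on P7 replicates 1 to 3. The ages were far apart, and at P7 the signal was well above background on 1 of 3 arrays. It fell by 3.43 ± 0.15 (adjusted p = 0.000212). *Dynlrb2* stood at 3.65, 4.36 and 4.01 at P0 and at 0.06, 0.35 and 0.18 at P7, and fell by 3.81 ± 0.19 (adjusted p = 0.000281). *Tekt1* stood at 2.72, 3.40 and 2.94 at P0 and at 1.09, 0.43 and 1.33 at P7, and fell by 2.07 ± 0.26 (adjusted p = 0.00748). No P7 array reached the lowest P0 array for any of these genes, and the ages did not overlap for any of the 1089 called genes. Members of the radial spokes, the T-shaped regulators inside the axoneme, fell as well, *Rsph1* by 1.56 (adjusted p = 0.00523) and *Rsph4a*, not well above background on any P7 array, at least 1.63-fold (adjusted p = 0.00981). Such a bound is set on the Cy5 signal alone, not on the ratio to the reference. *Ccdc40*, which places the inner arms and the spokes, fell by 1.16 (adjusted p = 0.0186). Heavy chains of outer arm dynein fell less, *Dnah5* by 0.87 (adjusted p = 0.0258) and *Dnah9* by 0.61 (adjusted p = 0.0259), as did *Tekt2* by 0.63 (adjusted p = 0.0447).

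**Figure D2:**
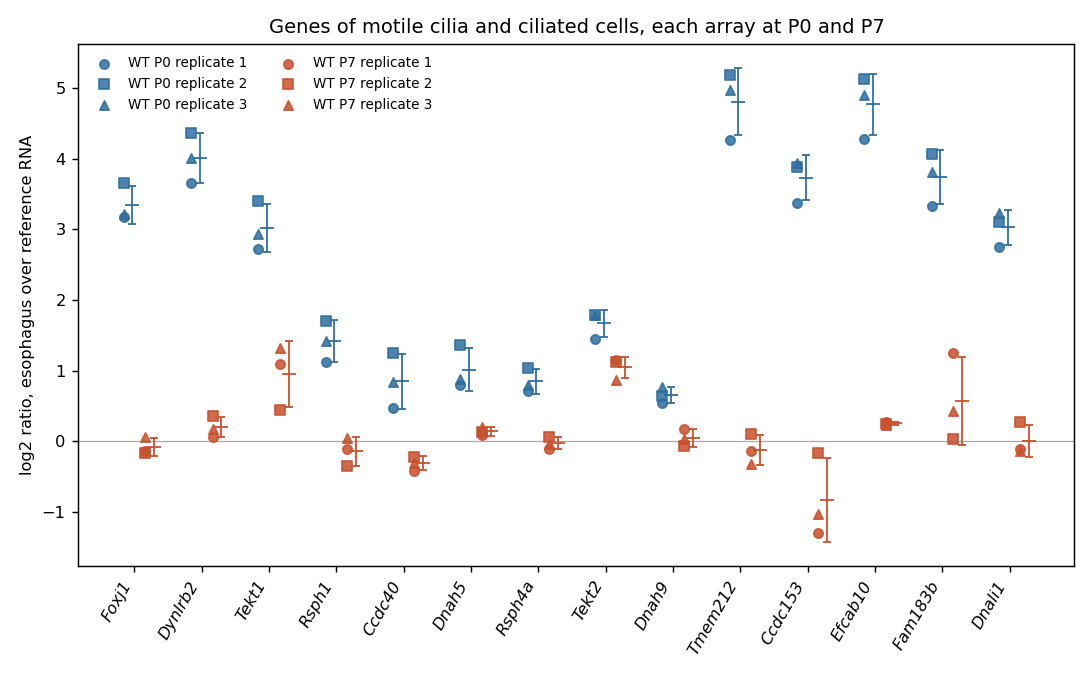
Log2 ratio of Cy5 over the reference (y axis) of motile cilia genes and of other genes of ciliated cells on each P0 and P7 array, 1 point an array, with the mean and SD of the 3 arrays beside them. The P0 arrays of Foxj1 lie between 3.17 and 3.65 and the P7 arrays between −0.17 and 0.06.

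The 7 other members of the list were not called. *Rfx2* and *Rfx3*, which encode Rfx factors, changed by −0.02 ± 0.11 (adjusted p = 0.941) and −0.07 ± 0.10 (adjusted p = 0.735), and their ages overlapped. *Ccno*, needed to multiply centrioles, changed by 0.11 (adjusted p = 0.708), the tubulin *Tubb4b* by 0.10 (adjusted p = 0.775) and the dynein intermediate chain *Dnaic1* by 0.34 (adjusted p = 0.103). *Hydin*, of the central pair, and *Ccdc39* changed by −0.52 (adjusted p = 0.0735) and −0.29 (adjusted p = 0.169). For *Hydin*, *Ccdc39* and *Dnaic1* the arrays of the ages did not overlap, as they did not for 28.8% of all genes tested.

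Several of the largest decreases outside the list were of genes known from ciliated cells, a grouping made after their values were seen. *Tmem212*, a membrane protein of multiciliated cells, stood at 4.27, 5.19 and 4.97 at P0 and at −0.14, 0.10 and −0.33 at P7, and fell by 4.93 ± 0.24 (adjusted p = 0.000281). *Ccdc153*, a coiled-coil protein of ciliated cells, stood at 3.37, 3.88 and 3.94 at P0 and at −1.30, −0.17 and −1.03 at P7, and fell by 4.56 ± 0.30 (adjusted p = 0.00078). *Efcab10* was not well above background on any P7 array and was at least 15.8-fold lower (adjusted p = 0.000212). The axonemal dynein light chain gene *Dnali1* was not above background at P7 either, and its ratio changed by −3.02 (adjusted p = 0.00037). *Fam183b* fell by 3.17 (adjusted p = 0.00353), *Agr3*, a disulfide isomerase that regulates ciliary beat in airway cells, fell by 2.67 (adjusted p = 0.00187), and *Lrrc34* was at least 6.80-fold lower (adjusted p = 0.000426). None of these 7 genes overlapped between the ages, and neither did any other of the 1089 called genes. Other large decreases outside the lists were of *1110017D15Rik*, which fell by 3.66 (adjusted p = 0.00059), *Trim15*, an E3 ligase of the tripartite motif family, by 3.09 (adjusted p = 0.000553), and *1600029I14Rik*, whose ratio changed by −3.31 (adjusted p = 0.00037) and whose signal was not well above background on any P7 array.

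The count of 9 cilia genes was 3 without P0 replicate 3 and between 5 and 9 without any other array, and *Foxj1*, *Dynlrb2* and *Rsph1* were called whichever array was left out. With the 6 E11.5 and E15.5 arrays added to the fit, 0 of the list was called. On those arrays *Foxj1* stood at 0.74, 0.29 and 4.49 at E11.5 and at 0.99, 4.50 and 4.19 at E15.5, so that E11.5 replicate 3 was like the E15.5 arrays and E15.5 replicate 1 like the E11.5 arrays, against their labels.

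Markers of lung and airway moved the same way. Of 8 on the array 5 were tested, as *Sftpb*, *Sftpa1* and *Nkx2-1* did not pass the filter on signal. All 5 had a lower mean at P7 and 2 fell. Their mean level over the list, centred on the mean of each gene, was 0.23, 1.83 and 1.79 on the P0 arrays and −1.33, −1.08 and −1.45 on the P7 arrays. *Scgb3a1*, a secretoglobin of airway secretory cells, stood at 1.99, 4.23 and 4.41 at P0 and at 0.08, −0.01 and 0.39 at P7, and fell by 3.39 ± 0.60 (adjusted p = 0.0228). *Sftpd*, surfactant protein D, stood at 3.62, 3.93 and 4.16 at P0 and at 2.06, 0.57 and −0.24 at P7, and fell by 3.11 ± 0.53 (adjusted p = 0.0198). *Sftpc*, which defines alveolar type 2 cells, stood at 2.67, 4.05 and 1.84 at P0 and at 0.18, 0.70 and 0.87 at P7 (adjusted p = 0.0507). *Scgb3a2* and *Scgb1a1* changed by −3.55 (adjusted p = 0.137) and −0.52 (adjusted p = 0.263). With the replicate number as a block, 4 of the 5 fell, and without P0 replicate 2 or without P0 replicate 3 none of them was called.

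P0 replicate 1 held the least of the lung list, and its level of the cilia list was 0.32, beside 0.64 and 0.48 on P0 replicates 2 and 3 and −0.49 to −0.47 at P7. On E15.5 replicates 2 and 3, where *Foxj1* stood at 4.50 and 4.19, *Scgb3a1* stood at 0.20 and 0.06 and *Sftpd* at 0.01 and −0.20. Whether these transcripts came from lung or from the esophagus was not tested, nor was the part of lung RNA in the fall of the cilia genes.

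A block of genes of innate defence fell as well. Of 35 tested members of the Toll-like receptor and NFκB list, 7 fell and none was called higher, against 2.96% called lower among all genes, with a median change of −0.16. They were receptors and chemokines. *Cd14*, the co-receptor that hands bacterial lipopolysaccharide to Tlr4, stood at −0.99, −1.51 and −1.26 at P0 and at −3.48, −3.42 and −3.88 at P7, and fell by 2.34 ± 0.18 (adjusted p = 0.00127). Before birth it was also below every P0 array, between −4.59 and −2.84 at E11.5 and between −4.50 and −3.73 at E15.5. *Tlr2*, which with Tlr1 or Tlr6 recognises bacterial lipoproteins, stood at 0.21, 0.19 and 0.25 at P0 and at −0.97, −0.63 and −0.85 at P7, and fell by 1.03 ± 0.11 (adjusted p = 0.0046). Its partners moved by a like amount, *Tlr1* falling by 1.23 (adjusted p = 0.011) and *Tlr6* by 1.02 (adjusted p = 0.00698). *Cxcl5*, which attracts neutrophils, was not well above background on any P7 array, and its ratio changed by −2.84 (adjusted p = 0.00134). Other neutrophil chemokines were lower too, *Cxcl1* by a change of −1.47 (adjusted p = 0.0349) and *Cxcl2* at least 1.62-fold (adjusted p = 0.0151).

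The cytoplasmic arm of that pathway was not called. *Myd88*, the adaptor of most Toll-like receptors, changed by 0.12 ± 0.13 (adjusted p = 0.646), *Rela*, the transactivating NFκB subunit, by 0.09 (adjusted p = 0.788) and *Nfkbia*, the inhibitor that NFκB itself induces, by −0.42 ± 0.28 (adjusted p = 0.431). *Tlr4* changed by −0.16 (adjusted p = 0.552), *Tnf* by −0.59 (adjusted p = 0.0655) and *Tnfaip3* by −0.71 (adjusted p = 0.0791). The count of 7 was 4 without P0 replicate 1 or P0 replicate 2, 3 without P0 replicate 3 and 10 without P7 replicate 2. *Cd14* and *Tlr2* were called whichever array was left out. Markers of neutrophils were not called in 8 tested, and their mean level was 1.35 on P7 replicate 2 and between −0.52 and 0.13 on the other 5 arrays.

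*Reg3g*, a lectin that kills Gram-positive bacteria, showed the largest fall among the antimicrobial genes. It stood at 2.03, 4.99 and 5.84 at P0 and at 0.17, 0.65 and −0.02 at P7, and fell by 4.02 ± 0.88 (adjusted p = 0.0459). P0 replicate 1 was the lowest of the P0 arrays, as for *Scgb3a1*, and the ages did not overlap, as for every called gene. The call did not hold without P0 replicate 2, P0 replicate 3, P7 replicate 1 or P7 replicate 3, where adjusted p reached 0.16. Of the 18 tested members of that list, 2 rose, the interleukin 1 family member *Il1f8* by 0.87 (adjusted p = 0.0107) and the defensin *Defb3* by 0.59 (adjusted p = 0.0476). With the replicate number as a block 4 rose, and *Defb3* was not among the called (adjusted p = 0.0586). The count of 2 was 0 without any 1 of the P0 arrays, 1 without P7 replicate 1 and 4 without P7 replicate 3. *S100a8*, a subunit of calprotectin, stood at 2.52 on P7 replicate 2 and between −1.11 and 0.05 on the other arrays, and was not called (adjusted p = 0.737).

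Late cornified envelope genes had the highest median change of the lists. Of 14 tested, 9 rose and none fell, against 2.95% called higher among all genes, and the median change of the list was 3.07. The members lie side by side in the epidermal differentiation complex and are near copies of one another, so that probes of different members may share signal. *Lce1a2* stood at 0.15, 1.26 and −0.21 at P0 and at 4.50, 5.06 and 3.23 at P7, and rose by 3.86 ± 0.53 (adjusted p = 0.0103). *Lce1a1* stood at 1.09, 2.23 and 0.28 at P0 and at 4.97, 5.57 and 3.84 at P7 (change 3.60 ± 0.58, adjusted p = 0.0166). The other called members, *Lce1i*, *Lce1f*, *Lce1b*, *Lce1c*, *Lce1h*, *Lce1e* and *Lce1g*, changed by 1.68 to 3.83. In each of them P0 replicate 2 was the highest P0 array, P0 replicate 3 the lowest, and P7 replicate 3 the lowest P7 array. Their ages did not overlap, as for every called gene.

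**Figure D3:**
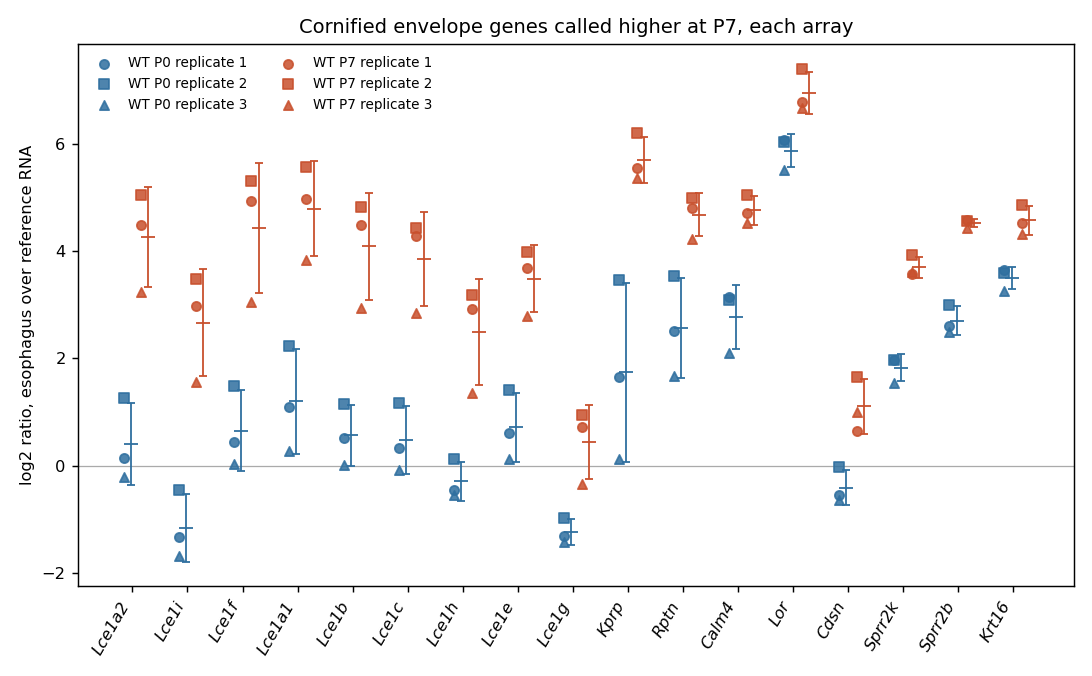
Log2 ratio of Cy5 over the reference (y axis) of called genes of the cornified envelope and keratins on each P0 and P7 array, 1 point an array, with the mean and SD of the 3 arrays beside them. P0 replicate 2 is the highest P0 array of Lce1a1 and Kprp, and P7 replicate 3 is the lowest P7 array of both.

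The 5 members not called were *Lce3f*, *Lce1d*, *Lce3c*, *Lce1m* and *Lce1l*. *Lce3f* stood at 3.03, 6.69 and 2.87 at P0 and at 7.71, 8.08 and 7.32 at P7 (change 3.51 ± 0.95, adjusted p = 0.0846), with P0 replicate 2 close to the P7 arrays. *Lce1m* stood at 2.81 and 2.89 on P7 replicates 1 and 2 and at 0.30 on P7 replicate 3 (adjusted p = 0.151). *Lce1l* changed by 0.07 ± 0.10 (adjusted p = 0.718), and its ages overlapped. The count of 9 was 0 without P0 replicate 1 and 0 without P0 replicate 3, and 5 without P7 replicate 1, and for the 8 members with the largest called changes the highest adjusted p with an array left out lay between 0.0601 and 0.0997. With the replicate number as a block 12 of 14 rose.

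Other proteins of the envelope rose less evenly. Of 29 tested genes of the cornified envelope and terminal differentiation, 6 rose and none fell, against 2.95% called higher among all genes. *Kprp*, a proline-rich keratinocyte protein, stood at 1.65, 3.46 and 0.12 at P0 and at 5.55, 6.20 and 5.37 at P7, and rose by 3.96 ± 0.76 (adjusted p = 0.0293). *Rptn*, an S100-fused envelope protein, rose by 2.11 (adjusted p = 0.0417), the calmodulin-like *Calm4* by 1.99 (adjusted p = 0.0125), and *Cdsn*, the corneodesmosin that holds cornified cells together, by 1.51 (adjusted p = 0.0254). *Dsg1a*, a desmosomal cadherin of upper layers, rose by 1.32 (adjusted p = 0.0441). *Lor*, loricrin, the main protein of the envelope, stood at 6.08, 6.03 and 5.51 at P0 and at 6.79, 7.41 and 6.68 at P7, and rose by 1.08 ± 0.23 (adjusted p = 0.0432). *Flg* and *Ivl*, filaggrin and involucrin, changed by 1.79 ± 0.66 (adjusted p = 0.168) and 0.50 ± 0.16 (adjusted p = 0.128). The count of 6 was 1 without P0 replicate 1 or P0 replicate 3, 3 without P7 replicate 1, and 4 or 5 without any other array.

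The Sprr genes are also near copies of one another. Of 11 tested, 3 rose, against 2.95% called higher among all genes, and 10 had a higher mean at P7. For 9 the P7 arrays all lay above the P0 arrays, as they did for 14.8% of all genes. *Sprr2k* stood at 1.98, 1.97 and 1.54 at P0 and at 3.57, 3.93 and 3.61 at P7, and rose by 1.87 ± 0.16 (adjusted p = 0.00169). *Sprr2b* stood at 2.61, 3.01 and 2.50 at P0 and at 4.58, 4.56 and 4.44 at P7, and rose by 1.82 ± 0.15 (adjusted p = 0.00139). *Sprr2a1* rose by 0.71 (adjusted p = 0.0321). *Sprr3* and *Sprr2h* changed by 0.30 ± 0.21 (adjusted p = 0.452) and −0.01 ± 0.27 (adjusted p = 0.989), and their ages overlapped. With the replicate number as a block 5 rose. *Sprr2k* and *Sprr2b* were called in every alternative that tested them and with any array left out.

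Most keratins did not pass the test. Of 17 keratins of stratified epithelium 1 rose, *Krt16*, a keratin of rapidly renewing epithelium, by 1.08 ± 0.17 (adjusted p = 0.0158). This was 5.88% of the keratins tested, beside 5.91% called among all genes. The basal pair *Krt5* and *Krt14* changed by 0.18 ± 0.18 (adjusted p = 0.597) and 0.17 ± 0.24 (adjusted p = 0.727), and the suprabasal pair of the esophagus, *Krt4* and *Krt13*, by 0.38 ± 0.15 (adjusted p = 0.211) and 0.47 ± 0.24 (adjusted p = 0.302). The epidermal pair was uneven at P7. *Krt1* stood at 2.94 and 3.28 on P7 replicates 1 and 2 and at 1.00 on P7 replicate 3, with P0 arrays from 0.95 to 1.51. *Krt10* stood at 3.34, 3.73 and 0.88 on the P7 arrays, with P0 arrays from 0.82 to 1.67. P7 replicate 3 was thus within or near the P0 range for both, as it was for *Flg* at 0.61. Of 5 keratins of simple epithelium *Krt19* fell, by 0.99 ± 0.11 (adjusted p = 0.00473), while *Krt8* and *Krt18* changed by −0.11 (adjusted p = 0.839) and −0.35 (adjusted p = 0.746).

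Stomach markers were high on P7 replicates 1 and 2, the arrays on which *Krt1* and *Krt10* were high. Their mean level over 7 genes was −1.06, −0.16 and −1.01 on the P0 arrays and 2.41, 1.09 and −1.28 on the P7 arrays, and none was called. *Atp4b*, the proton pump subunit that defines parietal cells, stood at 5.60, 3.62 and 0.10 on the P7 arrays. The part of the sampled region of the organ in the Lce and keratin values was not tested. On P7 replicate 3, where *Gkn2* stood at −0.29, *Lce1a1* stood at 3.84, above the highest P0 array at 2.23.

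**Figure D4:**
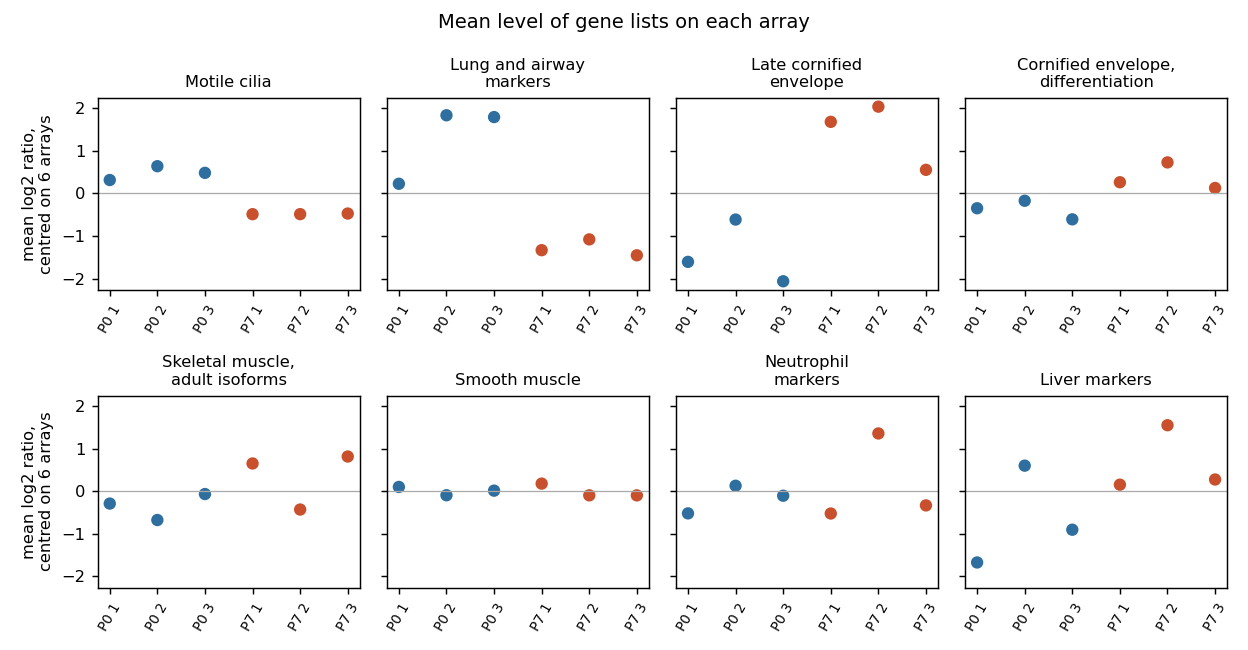
Mean centred log2 level of gene lists and marker lists (y axis) on each of the 6 arrays (x axis), 1 panel a list, blue for P0 and red for P7. The cilia list runs from 0.32, 0.64 and 0.48 at P0 to −0.49, −0.48 and −0.47 at P7, and the skeletal muscle list is lower on P7 replicate 2 than on the other P7 arrays.

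Enzymes that finish the barrier moved in both directions. Of 20 barrier lipid enzymes 2 rose and 1 fell. *Alox12e*, an epidermal-type lipoxygenase, stood at 5.17, 5.38 and 5.13 at P0 and at 2.28, 2.96 and 2.46 at P7, and fell by 2.66 ± 0.18 (adjusted p = 0.000836). *Sdr9c7*, which oxidises acylceramides, rose by 1.02 (adjusted p = 0.0223), and *Smpd1*, acid sphingomyelinase, by 0.51 (adjusted p = 0.0384, and 0.0524 with the replicate number as a block). Of 20 proteases and inhibitors 2 rose, both kallikreins of the kind that cut corneodesmosin. *Klk7* stood at 0.27, 0.41 and −0.10 at P0 and at 2.04, 2.66 and 1.44 at P7, and rose by 1.86 ± 0.30 (adjusted p = 0.0171). *Klk14* was at least 1.64-fold higher (adjusted p = 0.0145). With the replicate number as a block 6 lipid enzymes and 6 proteases or inhibitors rose. Without any 1 of the P0 arrays or without P7 replicate 1 no lipid enzyme rose, and without P0 replicate 1, P0 replicate 3 or P7 replicate 1 no protease or inhibitor did, while 4 lipid enzymes rose without P7 replicate 3.

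Muscle genes were mostly higher at P7, but P7 replicate 2 stood apart. Of 34 skeletal muscle contractile genes 33 had a higher mean at P7, beside 52.3% of all genes, and 4 rose. *Myh2*, a fast myosin heavy chain, stood at 1.23, 0.68 and 2.18 at P0 and at 3.68, 2.83 and 4.02 at P7, and rose by 2.15 ± 0.43 (adjusted p = 0.0345). *Myom1*, which crosslinks thick filaments, rose by 1.02 (adjusted p = 0.0146), *Actn2*, the actinin of the Z disc, by 0.59 (adjusted p = 0.035) and *Tnni2*, fast troponin I, by 0.59 (adjusted p = 0.0262). The mean level of the list was −0.29, −0.68 and −0.07 on the P0 arrays and 0.65, −0.43 and 0.81 on the P7 arrays. Without P7 replicate 2, 22 of the 34 rose, without any other array 0 or 1 did, and with the replicate number as a block 9 rose.

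The embryonic and perinatal myosins *Myh3* and *Myh8* changed by 0.64 ± 0.17 (adjusted p = 0.0779) and 0.64 ± 0.45 (adjusted p = 0.457). *Myh1* and *Myh4*, the other adult fast myosins, changed by 0.77 ± 0.27 (adjusted p = 0.153, and 0.024 with the replicate number as a block) and 0.75 ± 0.36 (adjusted p = 0.277, and 0.0197 with the block). Of 19 embryonic and neonatal isoforms and myogenic factors none was called, and 8 rose without P7 replicate 2. The receptor subunits that exchange as the neuromuscular junction matures, *Chrng* of the fetal and *Chrne* of the adult receptor, changed by 0.10 ± 0.33 (adjusted p = 0.895) and 0.01 ± 0.13 (adjusted p = 0.972). Among 15 smooth muscle genes *Myocd*, the coactivator of the smooth muscle programme, fell by 1.20 ± 0.12 (adjusted p = 0.00295), while its contractile products *Acta2* and *Myh11* changed by 0.20 (adjusted p = 0.495) and 0.33 (adjusted p = 0.316). *Myocd* was called whichever array was left out but in 11 of 17 other alternatives, where its change ran from −1.80 to −0.50. The call was lost with outlier-flagged spots left out and with the deposited ratios, among others.

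Genes that answer glucocorticoids fell in 4 of 11 tested, against 2.96% called lower among all genes, with a median change of −0.31. *Fkbp5*, a chaperone of the glucocorticoid receptor, stood at −0.11, 0.78 and 0.40 at P0 and at −0.74, −0.71 and −0.81 at P7, and fell by 1.11 ± 0.21 (adjusted p = 0.0308). *Sult1a1*, a sulfotransferase, fell by 0.89 (adjusted p = 0.0125), *Klf9*, a Krüppel-like factor, by 0.88 (adjusted p = 0.0179) and *Cdkn1a*, a cyclin-dependent kinase inhibitor, by 0.62 (adjusted p = 0.0145). The count was 0 without P0 replicate 2 or P0 replicate 3, 2 without P0 replicate 1, and 3 or 4 without any P7 array. *Sgk1*, *Ddit4* and *Mt2* of the same list changed by 0.35, 0.10 and −0.04 and were not called. Of 17 clock genes 1 fell, *Per1*, which also has a glucocorticoid response element. It stood at 0.52, 0.91 and 0.74 at P0 and at −0.56, −0.95 and −0.69 at P7, a fall of 1.46 ± 0.15 (adjusted p = 0.00339), and was called whichever array was left out. *Dbp*, a direct output of the clock, changed by 0.26 (adjusted p = 0.572). Among 18 immediate early genes none was called, and *Fos* changed by −0.88 ± 0.20 (adjusted p = 0.0523, and 0.0394 with the replicate number as a block).

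Signals of growth and patterning changed in few members. In the Hedgehog pathway *Hhip*, a target that binds the ligand and restrains the pathway, stood at 2.18, 2.21 and 2.38 at P0 and at 1.04, 0.86 and 1.31 at P7, and fell by 1.19 ± 0.14 (adjusted p = 0.00541). In the Wnt pathway 1 of 35 rose and 2 fell (8.57% called, beside 5.91% of all genes). The number that fell was 0 without any 1 of the P0 arrays or without P7 replicate 1, 5 without P7 replicate 2 and 4 with median centring. The secreted modulators changed, *Sfrp4* by 1.32 (adjusted p = 0.0367) and *Sfrp1* by −0.64 (adjusted p = 0.026), and the ligand *Wnt6* changed by −0.72 (adjusted p = 0.0188). In the Notch pathway the ligand *Dll1* rose by 0.65 (adjusted p = 0.0284), 1 of 25 tested (4%, beside 5.91% called among all genes). In the Bmp pathway none of 27 was called. The transcription factors of the lining *Sox2*, *Trp63* and *Pax9* changed by −0.43 ± 0.22 (adjusted p = 0.296), −0.48 ± 0.11 (adjusted p = 0.0581) and −0.46 ± 0.37 (adjusted p = 0.522).

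Of 24 fetal and imprinted growth genes 3 fell (0 without any 1 of the P0 arrays, 1 without P7 replicate 1 or 3), and they were the 3 paralogs of one family of fetal RNA-binding proteins. *Igf2bp3* stood at 0.96, 1.04 and 0.93 at P0 and at 0.32, 0.44 and 0.30 at P7 and fell by 0.62 (adjusted p = 0.0141), *Igf2bp2* fell by 0.76 (adjusted p = 0.0303) and *Igf2bp1* by 0.50 (adjusted p = 0.0318, and 0.0571 with the replicate number as a block). *Igf2*, the growth factor whose mRNA they bind, and *H19* changed by −0.01 ± 0.10 (adjusted p = 0.976) and 0.05 ± 0.15 (adjusted p = 0.878). Of 42 cell cycle genes *Rrm2*, of ribonucleotide reductase, rose by 0.79 (adjusted p = 0.0424). It was the 1 member called, 2.38% beside 5.91% of all genes. *Mki67*, *Top2a* and *Cdk1* changed by 0.19 (adjusted p = 0.578), −0.00 (adjusted p = 0.993) and −0.17 (adjusted p = 0.422).

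In the matrix list 2 of 31 fell and 1 rose. *Lox*, lysyl oxidase, which crosslinks collagen and elastin, stood at −0.36, −0.12 and −0.09 at P0 and at −1.45, −1.76 and −1.65 at P7, and fell by 1.43 ± 0.13 (adjusted p = 0.00182). *Sparc*, a collagen-binding matricellular protein, fell by 1.31 ± 0.18 (adjusted p = 0.011), and *Fmod*, fibromodulin, rose by 0.70 (adjusted p = 0.0416). *Sparc* was called in 13 of 17 alternatives of the fit and *Fmod* in 10 of 17. The change of *Sparc* ran from −2.26 to −0.38 over them, and its call was lost with the brightest probe or with Cy5 alone, among others. The fibrillar collagens *Col1a1* and *Col3a1* changed by −0.27 ± 0.17 (adjusted p = 0.418) and −0.31 ± 0.13 (adjusted p = 0.237).

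Some markers of immune cells rose. Of 16 markers of macrophages, dendritic and Langerhans cells 4 rose and none fell, against 2.95% called higher among all genes. The count was 1 without P0 replicate 2, 2 without P0 replicate 3 or P7 replicate 1, 3 or 4 without any other array, and 1 with median centring. *H2-Eb1*, a class II chain, stood at −0.06, −0.23 and −0.12 at P0 and at 1.28, 1.14 and 1.03 at P7, and rose by 1.29 ± 0.11 (adjusted p = 0.00147). *Cd74*, the invariant chain, rose by 0.97 (adjusted p = 0.0248), *H2-Ab1* by 0.61 (adjusted p = 0.0187) and *Ly86*, which pairs with a Toll-like receptor homologue, by 1.18 (adjusted p = 0.0125). *Ighm*, the constant region of IgM, stood at 0.62, 1.15 and 0.72 at P0 and at 1.99, 2.67 and 2.27 at P7 and rose by 1.48 ± 0.21 (adjusted p = 0.0111), the 1 called of 10 lymphocyte markers. The mast cell protease *Mcpt4* rose by 1.07 (adjusted p = 0.0249). *Hdc*, which makes histamine, fell by 2.49 ± 0.35 (adjusted p = 0.0106), and *Aoc1*, a diamine oxidase that breaks histamine down, was at least 9.49-fold lower (adjusted p = 0.00037). *Cpa3*, a further mast cell marker, changed by 0.13 ± 0.32 (adjusted p = 0.848).

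Metabolic lists gave a few calls, and among all genes 2.95% were called higher and 2.96% lower. Over all lists, 33 counts of members called in a direction were 1 or 2, and 26 of these were 0 without at least 1 of the arrays. Of 17 adipocyte genes 2 rose, *Car3*, a carbonic anhydrase of fat and muscle, by 2.31 ± 0.45 (adjusted p = 0.0308) and *Cfd*, adipsin, at least 1.71-fold (adjusted p = 0.0156). Of 24 genes of fatty acid oxidation 2 rose, *Acadl* by 0.93 (adjusted p = 0.0166) and the carnitine carrier *Slc25a20* by 0.65 (adjusted p = 0.0214), while *Cpt1a* changed by 0.07 (adjusted p = 0.786). Without P7 replicate 2 these counts were 6 and 7, and without any other array 0 and 0 or 1. Of 28 Nrf2 targets *Ephx1*, an epoxide hydrolase, rose by 0.77 (adjusted p = 0.0165) and the glutathione transferase *Gsta4* fell by 0.67 (adjusted p = 0.0145). *Nfe2l2*, which encodes Nrf2, and *Keap1*, its inhibitor, changed by 0.14 (adjusted p = 0.641) and 0.22 (adjusted p = 0.476). *Upk3a*, a uroplakin, rose by 1.02 (adjusted p = 0.0245) and *Muc16*, a membrane mucin, fell by 0.99 (adjusted p = 0.0223), out of 9 uroplakins and surface mucins. Of 19 interferon response genes *Irf9* fell by 0.58 (adjusted p = 0.0302). None of 12 red cell genes was called. Markers of enteric neurons, glia, endothelium, neutrophils, stomach, liver and thymus had no member called, and 6 of the 8 liver markers rose with the replicate number as a block. Of 2 thyroid markers tested *Tg*, thyroglobulin, fell by 0.99 (adjusted p = 0.00451), and was called in all 17 alternatives and whichever array was left out. Of 6 cartilage markers *Col11a2* rose by 0.55 (adjusted p = 0.0389), a call lost without any 1 array other than P7 replicate 2.

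Of the 20 largest increases, 8 belonged to none of the lists. The largest was that of *Pbp2*, a phosphatidylethanolamine-binding protein, which stood at 0.37, 0.28 and −0.24 at P0 and at 6.65, 7.33 and 6.95 at P7, and rose by 6.84 ± 0.22 (adjusted p = 7.41e-05). *B3galt5*, a galactosyltransferase of glycan chains, stood at 1.89, 1.26 and 1.61 at P0 and at 4.44, 4.76 and 4.17 at P7 and rose by 2.87 ± 0.20 (adjusted p = 0.00095). *Kctd14*, a BTB-domain protein, rose by 2.64 ± 0.09 (adjusted p = 7.41e-05). On arrays outside the comparison these 3 genes split by group. On the Nrf2-/- and Nrf2-/-Keap1-/- P7 arrays *Pbp2* stood between 6.04 and 6.66, and on the Keap1-/- P7 and wild-type adult arrays between −1.33 and −0.70, below every P0 array. *B3galt5* stood between 3.46 and 3.88 on the former and between −1.93 and −0.85 on the latter, and *Kctd14* between 2.30 and 3.12 and between −0.06 and 1.45. On the Nrf2-/- adult arrays *B3galt5* stood between −1.83 and −1.39. All adult arrays held epithelium and not whole esophagus, so age and tissue cannot be told apart there.

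The Keap1-/- P7 arrays were scanned on a day other than the P0 and wild-type P7 arrays, and the Nrf2-/- and Nrf2-/-Keap1-/- P7 arrays on the same day, so for the Keap1-/- values scan day and genotype cannot be told apart. Their headers also name a later version of the Feature Extraction software than those of the other P7 arrays and the P0 arrays. Of the 3 wild-type adult arrays, 2 were scanned on the day of the P0 arrays with the same software version, and 1 on another day with the later version. The Nrf2-/- adult arrays were scanned on days other than that of the P0 arrays, also with the later version. For 4 other large increases the mutant P7 and adult arrays lay above the P0 arrays. *Trim12a*, of the tripartite motif family, was not well above background on any P0 array and was at least 9.88-fold higher (adjusted p = 0.000212), with 1.66 to 3.25 on the 9 P7 arrays of mutants and 2.09 to 2.70 on the adult arrays. *Slx1b*, a structure-specific endonuclease subunit, rose by 2.26 ± 0.12 (adjusted p = 0.00037), *Isoc2b* by 2.34 ± 0.18 (adjusted p = 0.00132) and *Lefty1*, a Nodal antagonist, by 2.89 ± 0.23 (adjusted p = 0.00134). The remaining increase, of *B930095G15Rik*, was 2.27 ± 0.13 (adjusted p = 0.00037), with −0.34 to 0.10 on the adult arrays. Among the decreases, *Tmem87a* fell by 3.09 ± 0.17 (adjusted p = 0.00037) and stood between −1.90 and −1.23 on the mutant P7 and adult arrays, and *Sh2d4a*, an adaptor with an SH2 domain, fell by 2.71 ± 0.25 (adjusted p = 0.002).

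**Figure D5:**
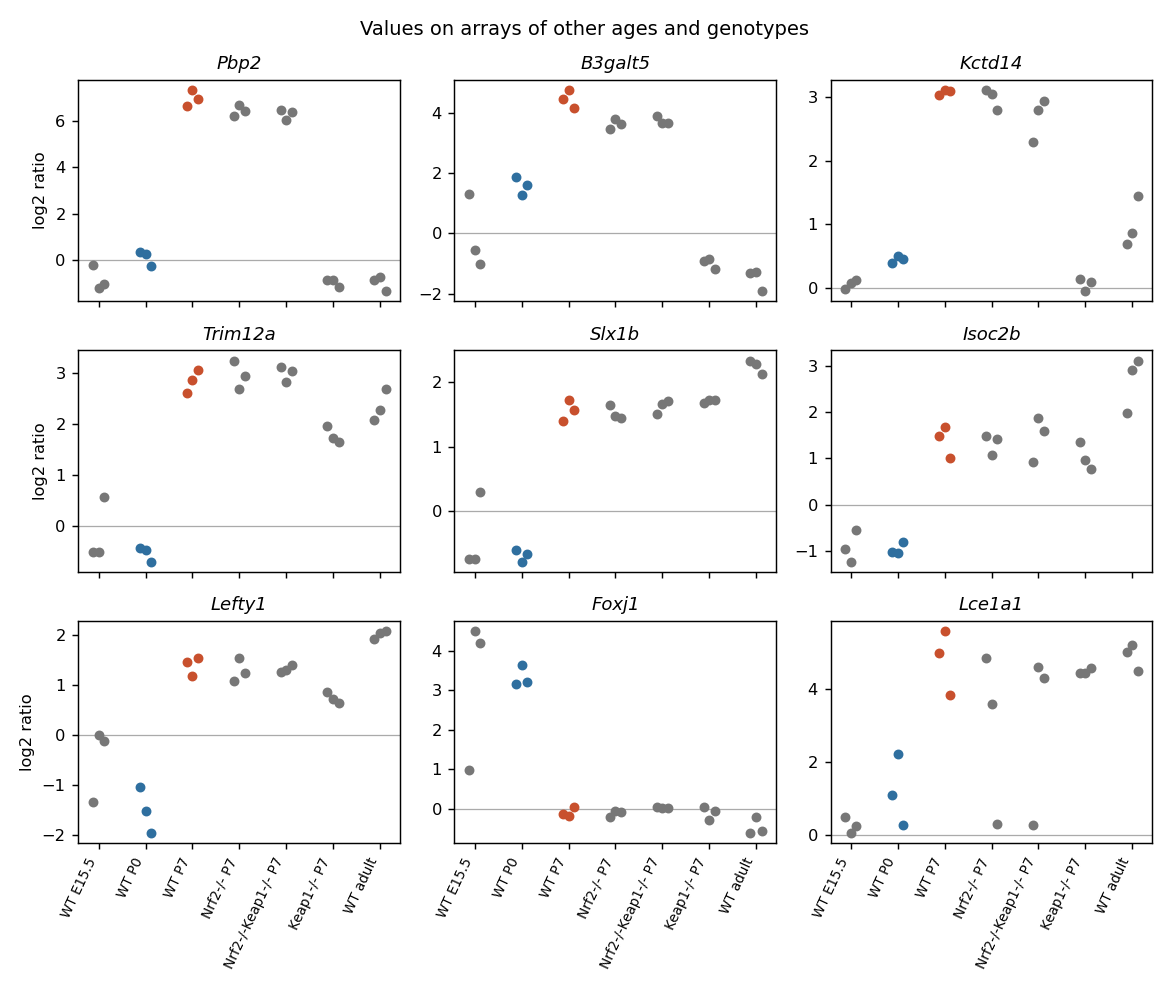
Log2 ratio of Cy5 over the reference (y axis) of genes with large changes on the wild-type P0 and P7 arrays and on arrays of other ages and genotypes, 1 point an array. Pbp2 is between 6.04 and 6.66 on Nrf2-/- and Nrf2-/-Keap1-/- P7 arrays and below the P0 arrays on Keap1-/- and adult arrays, while Foxj1 is between −0.61 and 0.06 on all P7 and adult arrays.

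The cilia and Lce genes were also read on those arrays, with no test. *Foxj1* stood between −0.28 and 0.05 on the 9 mutant P7 arrays and between −0.61 and −0.21 on the adult arrays. *Dynlrb2* stood between 0.13 and 0.45 on the mutant P7 arrays and between 0.98 and 1.89 on the adult arrays. *Cd14* stood between −3.87 and −3.27 on both. *Lce1a1* stood between 3.57 and 5.21 on 10 of these 12 arrays, and at 0.30 and 0.28 on 1 Nrf2-/- and 1 Nrf2-/-Keap1-/- array.

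Sex-linked genes differed between the ages as well. *Eif2s3y*, a Y-linked translation factor, stood at −0.01, 2.20 and 1.91 at P0 and at −3.03, −2.85 and −3.46 at P7, a change of −4.48 (adjusted p = 0.00654), with no P7 array well above background. *Xist*, transcribed from the inactive X chromosome, stood at 0.39, 0.04 and 0.24 at P0 and at 1.41, 1.46 and 1.01 at P7 and rose by 1.07 (adjusted p = 0.0125). The P0 arrays thus carried signal of both, and the P7 arrays of *Xist* without *Eif2s3y*. Although the methods speak of individual esophagi, whether a P0 array held RNA of more than 1 animal was not tested, and if one did, the SE at P0 is the spread between such samples and not between animals. *Ddx3y* and *Kdm5d*, also Y-linked, changed by −1.54 (adjusted p = 0.137) and −1.10 (adjusted p = 0.0677). Sex and age cannot be told apart in this comparison.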

How the data were processed

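RNA of whole esophagus (Cy5) and a universal mouse reference (Cy3) was hybridised together on 2-colour Agilent arrays of 45018 spots. The authors deposited 1 scanner file an array with raw intensity values of both channels, and a series table of processed log10 ratios, which differed from the scanner's own log10 ratio by at most 0.005. The labels name Feature Extraction 9.1, the headers of the 6 arrays 10.5.1.1.

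The 6 arrays were taken by the age, genotype and replicate number in their labels, and spots flagged as outliers were kept. Mean intensities were background-corrected by normexp (offset 50) and normalized by loess within arrays in limma 3.58.1 (R 4.3.3). Where the background around a spot exceeded 5 times the array's median, the median stood in for it during correction and the spot was dropped afterwards. Spots of a probe, then probes of a gene, were averaged. RefSeq names were found by accession for 65.4% of probes and by symbol or synonym for 14.3%, and the array's name was kept for 20.3%. A gene was tested when Cy5 of a probe was well above background on 3 or more of the 6 arrays. Linear models with empirical Bayes moderation and Benjamini-Hochberg adjustment gave the calls. For a gene not above background on any array of one age, a bound was set on the Cy5 channel alone, after Aquantile normalization between arrays, from the lowest signals well above background, and written as at least that fold. For 4 such genes, *Dnali1*, *Cxcl5*, *1600029I14Rik* and *Eif2s3y*, it exceeded the fold of the ratio, and the smaller change of the ratio is given instead. The offset shrinks changes of dim genes. Tested on simulated data, the fit recovered 91% of changes of 1 and 99% of changes of 2 on the log2 scale, with 5.5% false calls. The simulated noise was independent between genes and arrays and equal at both ages, with 200 genes changed. Noise shared between genes was not simulated, so these shares need not hold for the real arrays.

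Named are the 20 largest increases and decreases among called genes with a symbol, up to 6 called members of each list in each direction, and members chosen for their role. The members and lists were chosen with earlier results of these data known. Deviations of same-numbered P0 and P7 arrays correlated at 0.126, 0.372 and 0.266 for numbers 1 to 3. P0 replicate 1 correlated as highly with P7 replicate 3 (0.129), and the other unlike-numbered pairs lay between −0.319 and 0.033. The labels give only the replicate number and pair no animals, and the main fit left the arrays unpaired. Counts with the number as a block thus rest on a pairing read from these same values. A fit with the number as a block was an alternative, as were other signals, backgrounds, normalizations, filters, probes, sets of arrays, slide and scan as random blocks, an intensity trend, a fold threshold, significance analysis of microarrays (SAM, which the methods name) and each array left out. The labels call the arrays of an age biological replicates, and 3 arrays an age limit the precision. Protein sequences were not used here. Some list members are not reported here.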

Additional observations from a re-analysis of the deposited data

How the results depend on the processing

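Of 18428 genes, 1089 were called. The count was 93 where spots with a very high local background kept it, 396 with a change of at least 2-fold required, 456 by SAM and 481 with the 12 wild-type whole-esophagus arrays in the fit. It was 4464 with slide, or scan, as a random block, whose estimated correlation was −0.32, below 0. Leaving out 1 array gave 235 to 1986 genes (303 without P0 replicate 1, 325 without P0 replicate 2, 235 without P0 replicate 3, 588 without P7 replicate 1, 1986 without P7 replicate 2 and 788 without P7 replicate 3). The other alternatives gave 851 to 1337, the highest with the replicate block, in which 85.8% of the 1089 genes were called too. The causes of these differences were not tested. The block ended the calls of *Igf2bp1*, *Smpd1* and *Defb3* and began those of *Fos*, *Myh1* and *Myh4*, and changed no other call of a named gene. Over the named genes and alternatives, 2814 values kept direction and side of the threshold, 554 lost the call, 52 gained it and 1 reversed, *Sult1a1*, at 0.0409 with high local backgrounds kept. Of the 107 named genes that were called, 32 were tested and called whichever array was left out, and 12 of them also in every alternative of the fit that tested them, among these *Pbp2*, *Cd14*, *H2-Eb1*, *Sprr2b* and *Sprr2k*. Genes not above background at one age have a bound and no measured change.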

Other observations

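Further genes of ciliated cells were called lower outside the list, picked by name after their values were seen and given as a description. *Drc1*, of the nexin-dynein regulatory complex, stood at 2.96, 3.40 and 3.16 at P0 and at 1.05, 0.64 and 0.39 at P7 (change −2.48 ± 0.19, adjusted p = 0.00132). *Zmynd10*, needed to assemble dynein arms, changed by −1.55 (adjusted p = 0.00182), the adenylate kinase *Ak7* by −1.49 (adjusted p = 0.00182) and *Tekt4* by −1.24 (adjusted p = 0.00255). *Spag6l*, of the central pair, was at least 2.28-fold lower (adjusted p = 0.00478) and *Sntn*, of the ciliary tip, at least 2.04-fold lower (adjusted p = 0.00956).

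Other large called changes, also picked after their values were seen, touched genes of several kinds. *Ccnd1*, cyclin D1, stood at −1.54, −1.71 and −1.73 at P0 and at −0.42, −0.47 and −0.39 at P7 (change 1.23 ± 0.10, adjusted p = 0.00134). *Prdm16*, a zinc finger regulator, changed by 1.68 ± 0.19 (adjusted p = 0.00511), and the proton channel genes *Otop2* and *Otop3* by 1.90 (adjusted p = 0.0271) and 1.66 (adjusted p = 0.0179). *Cebpd*, a transcription factor of the acute phase, stood at 0.52, 1.05 and 0.79 at P0 and at −1.62, −1.33 and −1.43 at P7 (change −2.25 ± 0.16, adjusted p = 0.000836). *Mmp7*, matrilysin, was at least 2.86-fold lower (adjusted p = 0.0173), and *Chil4*, a chitinase-like protein, changed by −1.91 (adjusted p = 0.00748). *Ly96*, the partner of Tlr4 in lipopolysaccharide recognition, changed by 1.16 (adjusted p = 0.0251), opposite in sign to *Cd14* at −2.34.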
